A study of Mus musculus with 12 samples.

Results

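Amino acids cross the plasma membrane of mouse embryonic stem cells (mESCs) through transporters of the solute carrier (Slc) families. Here 10 genes for glutamate and amino acid transporters were followed, of 39017 genes in the deposited table: Slc1a1, Slc1a2, Slc1a3, Slc1a4, Slc1a5, Slc7a1, Slc7a3, Slc7a5, Slc7a11 and Slc3a2. The set was chosen by name, and was selected on these data because the 2i effect on Slc1a1 was far apart between the lines. For that reason the values of Slc1a1, and the differences between the lines in the 2i effect of every gene in the set, are given as a description with no test. RNA was measured by poly(A) sequencing in 2 lines and 2 media, with 3 libraries, named as biological replicates, in each of 4 groups. J1 cells are wild-type male mESCs. The line labelled 3B3-3l, called 3B3L here, descends from J1 cells that lack both Dnmt3a and Dnmt3b, the de novo DNA methyltransferases, and carries transgenes for Dnmt3b and for Dnmt3l, a cofactor of these enzymes, each driven by the CAG promoter. Constant expression of the transgenes was meant to let cells keep DNA methylation in 2i, which wild-type cells lose, so that effects of 2i could be separated from effects of the loss of methylation. As a model 3B3L is a single engineered line, so line, transgene and the missing Dnmt3a cannot be told apart.

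Serum cultures received DMEM with 15% fetal calf serum, nonessential amino acids and LIF. The 2i cultures were kept for 14 days in N2B27 medium with LIF, the MEK inhibitor PD0325901 at 1 µM and the GSK3 inhibitor CHIR99021 at 3 µM. The base medium, the serum and the amino acid supplement changed together with the inhibitors, and their effects on a transporter gene cannot be told apart. J1 cells in serum were grown on feeder cells that were removed by replating, and 3B3L cells were grown on gelatin, so growth surface and line cannot be told apart in serum. The feeders were also removed for the 2i conversion, so in J1 the growth surface changed together with the medium. Its part in the 2i effect in J1, and in the difference of the 2i effects between the lines, cannot be told apart either.

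The Slc1 family holds the high-affinity glutamate transporters, which move glutamate and aspartate inward with sodium, and the neutral amino acid exchangers of the ASCT type, which trade alanine, serine, cysteine, threonine and glutamine. Slc7 proteins are either cationic amino acid transporters, which carry arginine and lysine, or light chains that reach the membrane only when joined to a heavy chain, of which Slc3a2 (CD98 heavy chain) is the most widely used. In mESCs, amino acid supply is known to feed protein synthesis, glutathione and the tricarboxylic acid cycle, and glutamine dependence is known to vary with the culture medium.

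Promoter sequences from RefSeq (build GRCm38.p6, 250 bases before to 50 bases after an annotated start) were held for 7 of the 10 genes, and 3 of them are shown because these genes had 3 contrasting responses to 2i. Slc1a1 had opposite 2i effects in the lines, Slc1a4 was opposite in the other sense, and Slc1a3 was lower in 2i in both. Capitals mark CG dinucleotides, the sites of DNA methylation in these cells.
Slc1a1, chr19:28834885-28835184, plus strand: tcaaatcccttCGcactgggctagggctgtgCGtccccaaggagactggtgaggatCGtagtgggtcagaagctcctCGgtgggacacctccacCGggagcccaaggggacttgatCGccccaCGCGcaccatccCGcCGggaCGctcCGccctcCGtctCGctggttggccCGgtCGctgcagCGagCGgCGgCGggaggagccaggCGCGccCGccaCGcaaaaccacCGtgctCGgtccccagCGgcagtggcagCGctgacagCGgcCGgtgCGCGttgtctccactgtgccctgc
Slc1a4, chr11:20332664-20332963, minus strand: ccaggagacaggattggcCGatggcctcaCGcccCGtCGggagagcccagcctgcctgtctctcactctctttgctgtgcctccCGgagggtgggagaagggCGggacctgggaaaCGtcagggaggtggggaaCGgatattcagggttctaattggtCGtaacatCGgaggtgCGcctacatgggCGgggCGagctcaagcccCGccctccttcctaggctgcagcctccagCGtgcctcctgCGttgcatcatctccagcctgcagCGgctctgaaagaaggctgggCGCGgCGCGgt
Slc1a3, chr15:8710758-8711057, minus strand: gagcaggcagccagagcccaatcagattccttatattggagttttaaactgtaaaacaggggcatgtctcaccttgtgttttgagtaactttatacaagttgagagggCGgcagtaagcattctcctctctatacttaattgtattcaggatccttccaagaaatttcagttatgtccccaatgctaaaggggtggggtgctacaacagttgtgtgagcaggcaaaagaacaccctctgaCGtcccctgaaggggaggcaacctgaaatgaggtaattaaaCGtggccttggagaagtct
The Slc1a1 window held 32 CG dinucleotides, and 91.4% of 32851 promoter windows of the same length held no more. The Slc1a4 window held 21 and the Slc1a3 window 3, against a median of 7 over all windows. No promoter methylation was measured in the data used here. The letters TGATGNAA on either strand, the core of an ATF4 response element, occurred once in the Slc1a4 window, starting 4 bases before the gene start, and were found in 3.97% of all windows. They did not occur in the Slc1a1 or Slc1a3 window. The letters TGANNNNGC, an NRF2-type element, occurred 3 times in the Slc1a3 window, once in the Slc1a4 window and not in the Slc1a1 window, with 41.3% of all windows holding at least 1. CACGTG, an E-box held by 7.15% of windows, and CTTTGAT, a TCF/LEF element held by 3.73%, were in none of these 3 windows. TTCNNNGAA, a STAT-type element held by 8.3% of windows, occurred once in that of Slc1a3. A match is a description of the letters only. The windows of Slc1a2, Slc7a11 and Slc3a2 in the table lie at other annotated starts than the outermost 5′ start of the gene.

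Libraries held between 37050652 and 44515395 estimated reads. All 8 mESC markers examined, Pou5f1 and Nanog among them, exceeded 1 CPM (read counts scaled by library size) in each group and summed to between 4604 and 6416 CPM over the 12 libraries. The summed feeder fibroblast list of 12 genes ran from 150.8 to 161.1 CPM in J1 serum, from 245.8 to 280.7 in J1 2i, from 228.1 to 254.6 in 3B3L serum and from 239.4 to 252.7 in 3B3L 2i. Most of that sum was Vim, which mESCs also express. The fibroblast matrix genes Dcn and Lum were at or under 0.17 CPM in every group mean and at 0 counts in all 2i libraries. Other listed genes were detected in serum, with Col1a1 at 28.1 CPM in J1 and 35.5 in 3B3L, Col1a2 at 8.91 and 13.4 and Thy1 at 11.3 and 14.1. In 2i, 9 of the 12 feeder genes had lower means in J1, 2 higher and 1 equal, and 11 were lower and 1 higher in 3B3L. The trophoblast list of 7 genes, most of it Krt8 and Tfap2c, summed to between 125.6 and 131.4 CPM in J1 serum, 184.9 and 211.2 in J1 2i, 170.7 and 202.9 in 3B3L serum and 186.2 and 191.8 in 3B3L 2i. The sums of this list and of the feeder list were lowest in J1 serum, the group in which Slc7a1 was also lowest. Vim had its lowest mean there too, at 93.8 CPM against 227.9 in J1 2i, 157.5 in 3B3L serum and 228.7 in 3B3L 2i. Most feeder genes were instead higher in J1 serum than in J1 2i. The part of such cells in the 2i results in J1 was not tested. The lists for primitive endoderm and neural cells are given beside Slc1a3.

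Across the 9 genes with enough counts to be tested, 2i moved most of these transporters. With Slc1a1 set aside, 8 of 8 genes passed edgeR's quasi-likelihood test (adjusted p under 0.05) in J1, 5 higher and 3 lower in 2i. Among all 17885 genes tested, 66.1% passed in J1, 33.2% higher and 32.9% lower. In 3B3L, 6 of the 8 passed, 4 higher and 2 lower, where 65.4% of all genes passed, 32.7% higher and 32.7% lower. The median log2 fold change of the 8 genes was 0.57 in J1 and 0.35 in 3B3L, against a median over all genes of 0.01 in each line. With so large a share of all genes passing, the number of transporters that passed is near the background in 3B3L, and the sizes and directions given below carry the description.

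**Figure D1:**
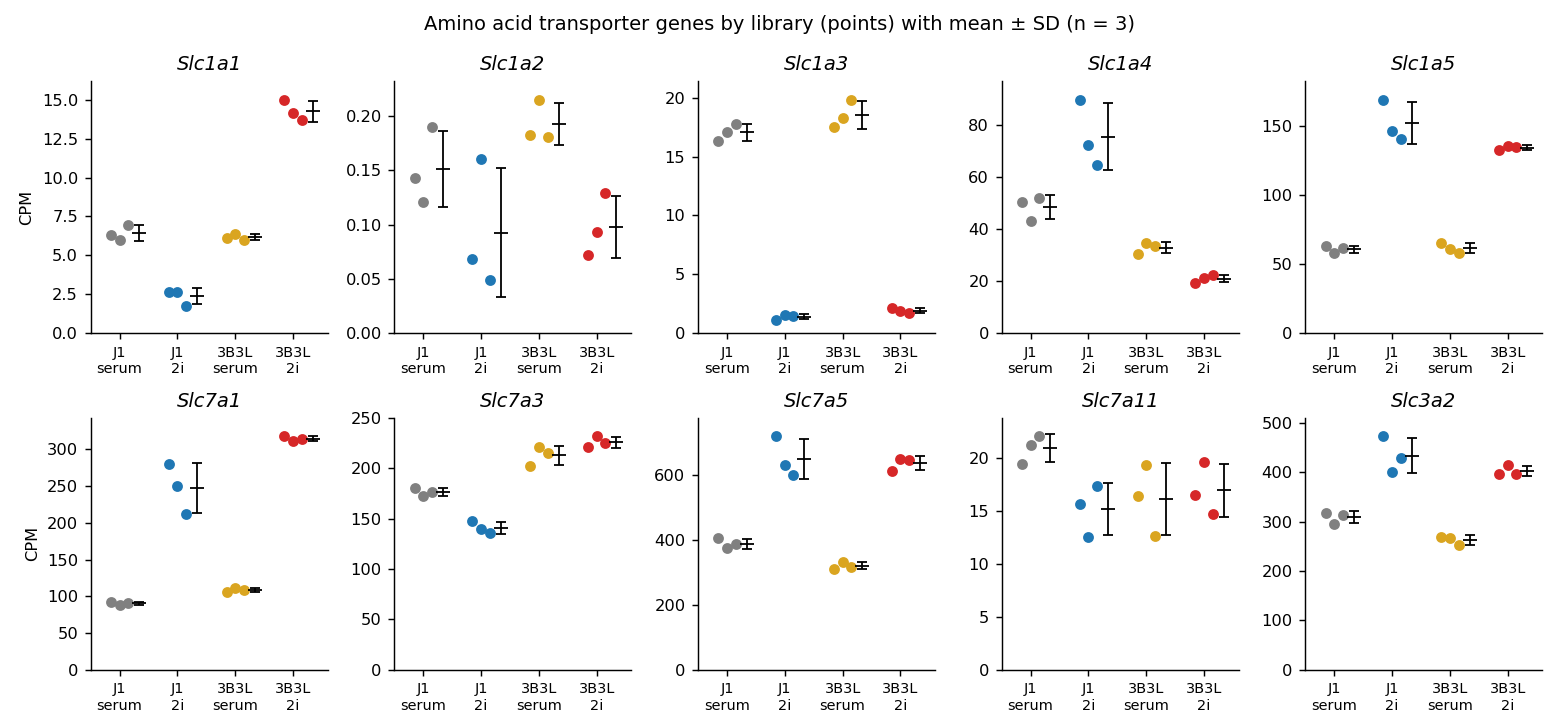
CPM of each of the 10 transporter genes (y axis, linear from 0, its own scale in each panel) in the 4 groups (x axis), with 1 point per library and the mean ± SD (n = 3) beside the points. Slc1a1 is the gene whose 2i libraries lie under the serum libraries in J1 (mean 2.36 against 6.42 CPM) and over them in 3B3L (14.3 against 6.15 CPM), Slc1a4 shows the opposite order, and Slc1a3 drops in both lines.

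Slc1a1 encodes the neuronal-type glutamate transporter EAAC1, which also carries cysteine and aspartate. In serum its level was 6.31, 5.98 and 6.96 CPM in the 3 J1 libraries, and 6.11, 6.36 and 5.97 CPM in the 3B3L libraries, so that the lines overlapped. In 2i it was 2.67, 2.66 and 1.76 CPM in J1 and 15.0, 14.2 and 13.7 CPM in 3B3L. Each J1 2i library was therefore lower than each serum library and each 3B3L 2i library was higher than each serum library. These levels rested on 72 to 117 estimated reads per library in J1 2i and on 530 to 624 in 3B3L 2i. The fitted log2 fold change for 2i against serum was -1.43 ± 0.13 (SE) in J1, a level 2.70-fold lower, and 1.22 ± 0.11 in 3B3L, a level 2.32-fold higher. Between the lines the log2 fold change (3B3L against J1) was -0.06 ± 0.11 in serum and 2.59 ± 0.12 in 2i, the latter a 6.02-fold higher level in 3B3L. The 2i effect in 3B3L minus that in J1 was 2.65 ± 0.16 on the log2 scale. Fewer cells expressing the gene and less RNA per cell cannot be told apart in such bulk libraries.

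The deposited transcript tables divided Slc1a1 among 5 annotated transcripts. The transcript Slc1a1-001 held 57.0% ± 2.91 (SD, n = 3) of the gene's length-corrected reads in J1 serum, 60.9% ± 7.36 in J1 2i, 80.3% ± 21.6 in 3B3L serum and 48.9% ± 6.28 in 3B3L 2i. The spread among the 3B3L serum libraries, from 55.8% to 97.0%, covered most of the gap between the groups. Slc1a1-002 held 27.5%, 23.4% and 29.4% in the 3B3L 2i libraries, and ranged from 0% to 26.8% in the libraries of 3B3L serum. In J1 it ranged from 0% to 12.3% in serum and from 0% to 10.5% in 2i. Slc1a1-004 held a mean of 30.3% in J1 serum, 33.5% in J1 2i, 5.21% in 3B3L serum and 23.4% in 3B3L 2i. Its 3B3L serum mean rested on 1 library, with shares of 0%, 15.6% and 0%. With offsets for the changed transcript lengths, the log2 fold change of Slc1a1 for 2i in 3B3L was 1.48 and the difference of the 2i effects was 2.99. Between the lines in serum (3B3L against J1) it was then -0.26, against -0.06 without the offsets.

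**Figure D2:**
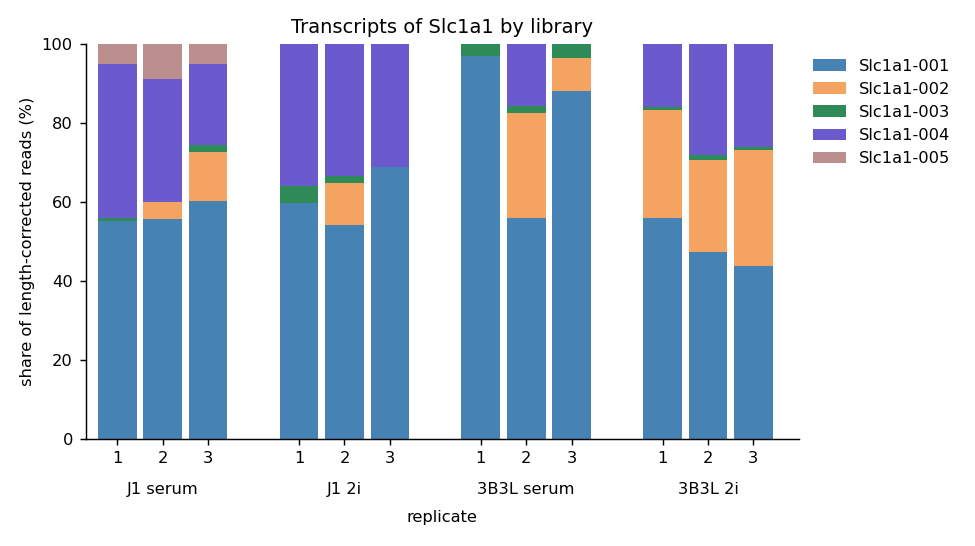
Share (%, y axis) of the length-corrected reads of Slc1a1 assigned to each of its 5 annotated transcripts, in each library (x axis, replicates 1 to 3 of the 4 groups, 1 stacked bar per library adding to all of the gene's reads). Slc1a1-001 is the largest share in every library, from 43.6% in a 3B3L 2i library to 97.0% in a 3B3L serum library, and Slc1a1-002 holds 23.4% to 29.4% in the 3B3L 2i libraries.

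Among 13785 genes at a mean of 1 CPM or more, 5 genes had the profile most like that of Slc1a1, measured as the root mean square difference of centred log2 CPM over the 12 libraries. The closest was P2rx7, an ATP-gated ion channel, at a difference of 0.183. Its level was 8.04 ± 0.554 CPM (SD, n = 3) in J1 serum, 4.04 ± 1.03 in J1 2i, 8.67 ± 0.460 in 3B3L serum and 19.9 ± 1.12 in 3B3L 2i. Susd1, which encodes a sushi domain protein, followed at 0.190, with 6.57, 3.20, 7.46 and 18.2 CPM in the same order. Fbp2, a fructose bisphosphatase, lay at 0.282, Adrb3, the beta-3 adrenergic receptor, at 0.337 and Slc5a11, a sodium-coupled inositol transporter, at 0.358. In each of these genes the J1 2i mean was the lowest of the 4 and the 3B3L 2i mean the highest. They were picked for likeness to Slc1a1 over the same libraries, so this order follows from the choice and nothing is read from it. Within the transporter set the closest to Slc1a1 was Slc7a3, at 0.700, and the farthest was Slc1a3, at 1.83.

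The gene nearest to Slc1a1 at higher coordinates, 4430402I18Rik, lies 3677 bases away. Its log2 fold change for 2i was -0.13 ± 0.29 in J1 (edgeR adjusted p = 0.728) and 0.83 ± 0.30 in 3B3L (adjusted p = 0.0239). In 2i its level was not separated between the lines (0.36 ± 0.28, adjusted p = 0.325). The nearest gene on the other side was not tested for lack of counts.

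Slc1a3 encodes GLAST, the glutamate transporter best known from astrocytes. It had the largest 2i change of the set in both lines. In J1 it measured 16.3, 17.1 and 17.8 CPM in serum and 1.14, 1.54 and 1.49 CPM in 2i. In 3B3L it measured 17.5, 18.2 and 19.8 CPM in serum and 2.09, 1.88 and 1.70 CPM in 2i. No 2i library of either line came near the serum range. The log2 fold change of Slc1a3 was -3.62 ± 0.11 (SE) in J1 (edgeR adjusted p = 1.12e-13), a 12.3-fold lower level, and -3.29 ± 0.10 in 3B3L (adjusted p = 1.43e-13), a 9.78-fold lower level. With offsets for changed transcript lengths these log2 values were -2.90 and -2.26. Between the lines it was not separated in serum (0.12 ± 0.08, adjusted p = 0.251) and was higher in 3B3L in 2i (0.45 ± 0.14, adjusted p = 0.0127). The 2i difference between lines did not pass without J1 2i replicate 1 (adjusted p = 0.0874), without 3B3L 2i replicate 1 (adjusted p = 0.0616), or with only the 6 libraries compared in the fit (adjusted p = 0.0615).

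Most of the neural and glial markers in the table had lower means in 2i, as Slc1a3 did, 7 of 8 in J1 and 5 of 8 in 3B3L, where 1 was at 0 in both media. In 2i the J1 mean of Pax6 was 0.320 CPM (8.17 in serum) and its 3B3L mean 0.359 CPM (7.51 in serum), while Nes stood at 22.8 CPM in J1 (60.9 in serum) and 37.8 CPM in 3B3L (106.1 in serum). The astrocyte marker Gfap stood at 0.541 CPM in J1 2i (1.05 in serum) and 0.680 CPM in 3B3L 2i (0.896 in serum), and Fabp7 and Olig2 were under 0.13 CPM in every group mean. Tubb3, a neuronal tubulin, stood at 96.2 CPM in J1 2i (139.9 in serum) and 87.0 CPM in 3B3L 2i (82.8 in serum). Aldh1l1, another marker of astrocytes, moved the other way, with 2i means of 85.6 CPM in J1 (7.96 in serum) and 77.2 CPM in 3B3L (8.94 in serum). The summed list, of which 8 of 9 genes were in the table and in which Aldh1l1 offset the others, ran from 215.7 to 222.1 CPM in J1 serum, from 192.8 to 217.4 in J1 2i, from 194.3 to 222.2 in 3B3L serum and from 197.0 to 208.0 in 3B3L 2i. Aqp4, a defining marker of astrocytes, was at or under 0.0080 CPM in every group mean. The sum of the primitive endoderm list of 7 genes was also higher in serum. It ran from 8.70 to 9.34 CPM in J1 serum and from 6.38 to 7.09 in J1 2i. The 3B3L sums were 16.0 to 17.4 CPM in serum and 7.91 to 8.46 in 2i. Dab2 held most of the serum sums, with means of 5.11 CPM in J1 (1.22 in 2i) and 9.065 CPM in 3B3L (1.88 in 2i). Gata4 rose instead, from 2.23 CPM to 4.14 in J1 2i and from 3.40 CPM to 4.215 in 3B3L 2i. Sox17 rose in J1 only, from 0.132 CPM to 0.311 in 2i. Every other gene of this list had a lower 2i mean in both lines. Collagen genes of the feeder list were lower in 2i in both lines. The 2i means of Col1a1 were 3.28 CPM in J1 (28.1 in serum) and 2.30 CPM in 3B3L (35.5 in serum). Over the 12 feeder genes, 9 were lower in 2i, 2 higher and 1 equal in J1, and 11 were lower and 1 higher in 3B3L. Vim was higher in 2i in both lines, and Pdgfrb in J1 (19.45 CPM against 6.31 in serum). The part of such cells in the Slc1a3 result was not tested.

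Slc1a2 encodes GLT-1, the main glutamate transporter of the forebrain. It held 2 to 9 estimated reads per library, at most 0.215 CPM, and was left out of the test for low counts. A floor of 3 reads in these libraries corresponds to between 0.0684 and 0.0813 CPM, so differences of Slc1a2 between the groups were not detectable at this depth.

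The neutral exchangers Slc1a4 (ASCT1) and Slc1a5 (ASCT2, the main importer of glutamine in many dividing cells) did not follow each other. In J1, Slc1a4 measured 50.4, 43.2 and 52.0 CPM in serum and 89.9, 72.4 and 64.6 CPM in 2i. In 3B3L it measured 30.5, 34.8 and 33.6 CPM in serum and 19.3, 21.3 and 22.2 CPM in 2i. The 4 groups did not overlap, with 2i above serum in J1 and under it in 3B3L. Slc1a4 rose by 0.64 ± 0.10 (log2, SE) in J1 (edgeR adjusted p = 4.23e-05) and fell by 0.66 ± 0.11 in 3B3L (adjusted p = 6.25e-05). In 3B3L it was lower than in J1 both in serum (-0.56 ± 0.11, adjusted p = 0.00059) and in 2i (-1.85 ± 0.11, adjusted p = 2.78e-09), the latter a 3.61-fold lower level. The 2i effect in 3B3L minus that in J1 was -1.29 ± 0.15, given as a description.

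Slc1a5 rose in both lines. It measured 62.9, 57.7 and 61.5 CPM in J1 serum against 169, 147 and 141 CPM in J1 2i. The 3B3L libraries read 65.1, 60.9 and 57.9 CPM in serum and 133, 136 and 135 CPM in 2i. The serum ranges of the lines overlapped, and all 2i libraries were more than 100 CPM. The log2 fold change for 2i was 1.33 ± 0.07 in J1 (edgeR adjusted p = 5.37e-11) and 1.13 ± 0.07 in 3B3L (adjusted p = 3.1e-10). Between the lines Slc1a5 was not separated in serum (0.01 ± 0.07, adjusted p = 0.891) and was lower in 3B3L in 2i (-0.18 ± 0.06, adjusted p = 0.0305). That last call was lost without J1 2i replicate 1, where the log2 difference was -0.10 (adjusted p = 0.2), without 3B3L 2i replicate 1 (adjusted p = 0.0882), without 3B3L 2i replicate 3 (adjusted p = 0.074) and with offsets for transcript length, where it was -0.06.

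Slc7a1 (CAT1) and Slc7a3 (CAT3) carry arginine and lysine. Slc7a1 had the highest 2i increase in the set in both lines. It measured 92.2, 87.8 and 90.9 CPM in J1 serum and 281, 250.5 and 212 CPM in J1 2i. The 3B3L values were 106, 111 and 109 CPM in serum and 318, 312 and 314.5 CPM in 2i, and no 2 of the 4 groups overlapped. The rise was 1.46 ± 0.07 on the log2 scale in J1 (edgeR adjusted p = 7.46e-11), or 2.74-fold, and 1.53 ± 0.07 in 3B3L (adjusted p = 3.26e-11), or 2.90-fold. Slc7a1 was higher in 3B3L than in J1 in serum (0.27 ± 0.07, adjusted p = 0.00974), a call lost with transcript length offsets (0.18), and in 2i (0.34 ± 0.07, adjusted p = 0.00099).

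Slc7a3 moved less. It measured 181, 173 and 176.5 CPM in J1 serum and 148, 139 and 135 CPM in J1 2i. The 3B3L libraries held 203, 221 and 215 CPM in serum and 221, 232 and 225 CPM in 2i. In J1 the 2i libraries were all under the serum libraries, whereas in 3B3L the highest serum library and the lowest 2i library were both at 221 CPM. Slc7a3 fell by 0.33 ± 0.05 (log2, SE) in J1 (edgeR adjusted p = 1.93e-05). In 3B3L its log2 fold change was 0.09 ± 0.05 and did not pass (adjusted p = 0.133). It was higher in 3B3L than in J1 in serum (0.27 ± 0.05, adjusted p = 0.000378) and in 2i (0.68 ± 0.05, adjusted p = 2.24e-08).

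Slc7a5 (LAT1) takes up leucine and other large neutral amino acids in exchange for glutamine, as a dimer with Slc3a2. Both subunits rose with 2i in both lines. Slc7a5 measured 406, 375 and 387 CPM in J1 serum and 721, 633 and 600.5 CPM in J1 2i. In 3B3L it measured 312, 333 and 317 CPM in serum and 613, 652 and 647 CPM in 2i. The 2i libraries of the lines overlapped, and those of serum did not. The log2 fold change for 2i was 0.74 ± 0.06 in J1 (edgeR adjusted p = 2.87e-08) and 0.99 ± 0.06 in 3B3L (adjusted p = 7.93e-10). In serum Slc7a5 was lower in 3B3L than in J1 (-0.28 ± 0.06, adjusted p = 0.00217), and in 2i no difference passed (-0.03 ± 0.06, adjusted p = 0.71).

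Slc3a2 measured 317, 294.5 and 314 CPM in J1 serum and 472, 401 and 428 CPM in J1 2i. For 3B3L the values were 269.5, 266 and 252 CPM in serum and 396, 414 and 396 CPM in 2i. As for its partner Slc7a5, the lines were apart in serum and overlapped in 2i. The 2i effect was 0.49 ± 0.06 in J1 (edgeR adjusted p = 1.68e-06) and 0.62 ± 0.06 in 3B3L (adjusted p = 1.15e-07). Slc3a2 was lower in 3B3L in serum (-0.23 ± 0.06, adjusted p = 0.00493) and not separated in 2i (-0.11 ± 0.06, adjusted p = 0.142). Without J1 2i replicate 2 the difference in 2i was -0.16 and passed (adjusted p = 0.0291).

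Slc7a11 (xCT), which also pairs with Slc3a2, brings in cystine in exchange for glutamate. It measured 19.5, 21.3 and 22.0 CPM in J1 serum and 15.7, 12.5 and 17.4 CPM in J1 2i. In 3B3L it measured 16.4, 19.3 and 12.6 CPM in serum and 16.5, 19.6 and 14.7 CPM in 2i. J1 serum lay over J1 2i and 3B3L serum without overlap and overlapped 3B3L 2i, and the other 3 groups overlapped each other. Slc7a11 fell by 0.46 ± 0.14 (log2, SE) in J1 (edgeR adjusted p = 0.00899) and did not pass in 3B3L (0.07 ± 0.14, adjusted p = 0.671). It was lower in 3B3L than in J1 in serum (-0.38 ± 0.14, adjusted p = 0.0477), with the call lost on leaving out any of 7 of the 12 libraries in turn (adjusted p as high as 0.216, without 3B3L serum replicate 3), and not separated in 2i (0.16 ± 0.14, adjusted p = 0.38).

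**Figure D3:**
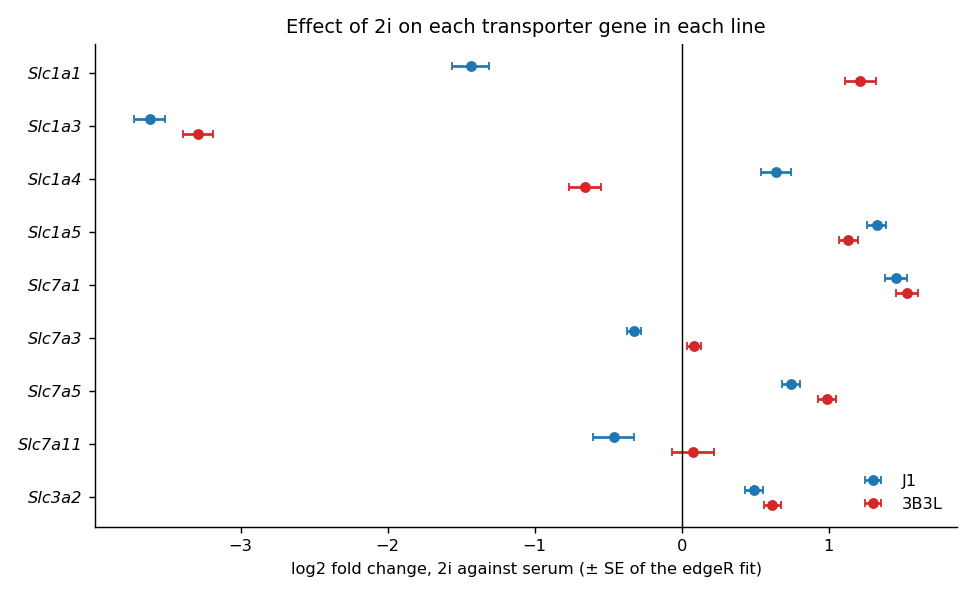
Log2 fold change for 2i against serum (x axis, 0 marks no change) of the 9 transporter genes tested (y axis) in J1 and in 3B3L, with points for the edgeR estimate and bars for its SE. Slc1a1 (-1.43 in J1, 1.22 in 3B3L) and Slc1a4 (0.64 and -0.66) lie on opposite sides of 0 in the lines, while Slc1a3 lies at -3.62 and -3.29 and Slc1a5, Slc7a1, Slc7a5 and Slc3a2 lie at positive values in both.

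Put beside each other, the lines had 5 transporters with 2i changes of the same direction that passed in both (Slc1a3 lower, and Slc1a5, Slc7a1, Slc7a5 and Slc3a2 higher). Slc1a4 passed in opposite directions. In serum, 6 of the 8 genes other than Slc1a1 differed between the lines, 2 higher and 4 lower in 3B3L, where 38.7% of all genes passed, 21.5% higher and 17.2% lower. In 2i, 5 of the 8 differed, 3 higher and 2 lower, where 45.9% of all genes passed, 23.0% higher and 22.9% lower. Without J1 2i replicate 1, or without 3B3L 2i replicate 1, 3 of the 8 differed in 2i. The median log2 difference of the 8 genes was -0.11 in serum and 0.07 in 2i, against 0.03 and 0.01 over all genes. These comparisons and those of 2i share libraries and are not independent of each other.

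For the difference between the lines in the 2i effect, which chose the set, 4 of the 8 genes would pass (3 higher and 1 lower in 3B3L), where 34.7% of all genes pass, 16.3% higher and 18.3% lower, and nothing is read from that count. It is 2 on leaving out any of 7 of the 12 libraries in turn. After Slc1a1 (2.65) and Slc1a4 (-1.29), the fitted differences were 0.54 ± 0.20 for Slc7a11, 0.41 ± 0.07 for Slc7a3, 0.33 ± 0.16 for Slc1a3, 0.25 ± 0.09 for Slc7a5, 0.13 ± 0.08 for Slc3a2, 0.08 ± 0.10 for Slc7a1 and -0.19 ± 0.09 for Slc1a5.

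Per length, in CPM per kilobase of effective transcript length, the 2 subunits Slc3a2 and Slc7a5 and the arginine transporter Slc7a3 led the set in serum. In J1 serum the order of means was Slc3a2 at 128 ± 5.25 (SD, n = 3), Slc7a5 at 116 ± 4.80, Slc7a3 at 84.7 ± 2.86, Slc1a5 at 32.0 ± 3.26, Slc7a1 at 14.8 ± 1.14, Slc1a4 at 13.0 ± 1.29, Slc1a3 at 5.90 ± 0.279, Slc7a11 at 2.57 ± 0.194, Slc1a1 at 2.29 ± 0.134 and Slc1a2 at 0.0273 ± 0.0233. The neighbours Slc7a1 and Slc1a4, and Slc7a11 and Slc1a1, overlapped between libraries and could not be ordered. In J1 2i, Slc7a5 (195 ± 18.6) and Slc3a2 (180 ± 14.7) overlapped at the top, Slc1a5 (77.0 ± 10.7) overlapped Slc7a3 (68.4 ± 2.99), and Slc1a3 (0.809 ± 0.232) overlapped Slc1a1 (0.798 ± 0.207). Between them lay Slc7a1 at 37.9 ± 6.78, Slc1a4 at 20.3 ± 3.50 and Slc7a11 at 1.94 ± 0.270, with Slc1a2 last at 0.00856 ± 0.00511.

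In 3B3L serum, Slc3a2 (109 ± 3.63), Slc7a3 (103 ± 5.40) and Slc7a5 (95.9 ± 3.40) each overlapped the next. Slc1a5 followed at 33.7 ± 0.854, Slc7a1 at 16.7 ± 0.617, Slc1a4 at 8.87 ± 0.626 and Slc1a3 at 5.82 ± 0.673, all without overlap. Slc7a11 (2.01 ± 0.354) and Slc1a1 (1.91 ± 0.315) overlapped, over Slc1a2 at 0.0170 ± 0.00159. In 3B3L 2i the order was Slc7a5 (190 ± 6.44), Slc3a2 (166 ± 3.91), Slc7a3 (109.8 ± 2.75), Slc1a5 (73.7 ± 2.54), Slc7a1 (47.2 ± 1.20), Slc1a4 (5.59 ± 0.391), Slc1a1 (5.29 ± 0.0430), Slc7a11 (2.13 ± 0.243), Slc1a3 (1.22 ± 0.213) and Slc1a2 (0.0232 ± 0.0246), and Slc1a4 and Slc1a1 were the only neighbours that overlapped. Slc1a1 overlapped the gene next over it in all 4 groups, so its exact rank was not resolved. In 3B3L 2i it was the most abundant of the 3 glutamate transporters, over Slc1a3 and Slc1a2 without overlap.

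**Figure D4:**
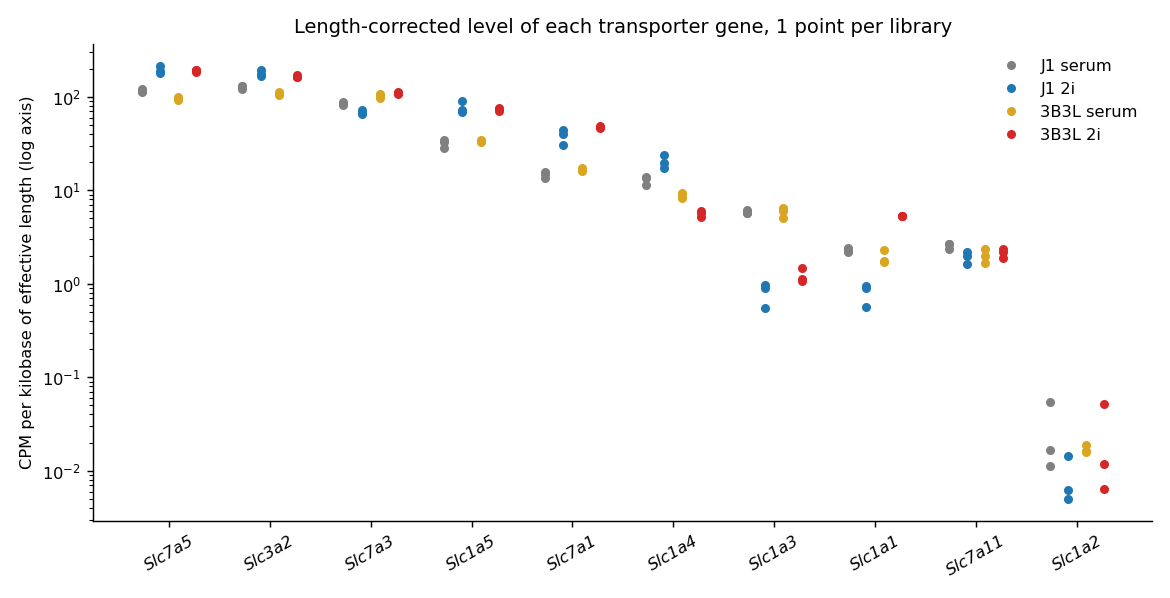
Length-corrected level (CPM per kilobase of effective length, log axis) of the 10 transporter genes (x axis, by mean level), with 1 point per library coloured by group. Slc7a5 and Slc3a2 lie near or over 100 in all groups, with Slc7a3 between them in 3B3L serum, Slc1a2 lies under 0.1, and the 3B3L 2i points of Slc1a1 (mean 5.29) lie over its J1 2i points (mean 0.798).

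Other amino acid transporters outside the set were taken as 3 lists. Among all genes tested, 66.1% passed for 2i in J1 and 65.4% in 3B3L. Between the lines, 38.7% passed in serum and 45.9% in 2i. These shares stand beside the counts of each list from here on, and counts near them are not read as a response. Of 5 other Slc1 and vesicular glutamate carriers, 3 were tested. In 2i 2 fell and 1 did not pass in J1 (median log2 fold change -1.43), and the same counts held in 3B3L (median -1.68), against medians of 0.01 over all genes. In serum 1 was higher in 3B3L and 2 did not pass, and in 2i 0 of the 3 passed between the lines by edgeR, with 0 at an unadjusted p under 0.05 and 0 by DESeq2. Of 12 other Slc7 and Slc3 genes, 8 were tested. In J1 5 fell, none rose and 3 did not pass (median -0.50), and in 3B3L 5 fell, 1 rose and 2 did not pass (median -0.68). Between the lines 3 were lower and 5 did not pass in serum, and 3 were higher, 2 lower and 3 did not pass in 2i. Slc7a7, a light chain that pairs with Slc3a2 and exports cationic amino acids, fell in J1, from 77.5 ± 5.34 to 25.2 ± 3.64 CPM (log2 fold change -1.62 ± 0.09, edgeR adjusted p = 1.17e-10) and in 3B3L, from 60.6 ± 3.75 to 34.4 ± 0.923 CPM (-0.82 ± 0.08, adjusted p = 3.4e-07). Slc7a6, another such light chain, fell by 0.52 in J1 (adjusted p = 2.64e-07) and by 0.33 in 3B3L (adjusted p = 3.45e-05).

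The third list held 29 amino acid transporters of the Slc38, Slc36, Slc43, Slc6 and Slc16 families, of which 24 were tested. In J1 9 rose, 10 fell and 5 did not pass (median log2 fold change 0.00), and in 3B3L 8 rose, 14 fell and 2 did not pass (median -0.56). Between the lines 9 were higher, 4 lower and 11 did not pass in serum, and 5 were higher, 10 lower and 9 did not pass in 2i. These counts stand beside the shares of all genes given for the other lists. Slc6a7, a proline transporter, had the highest increase. In J1 it rose from 1.02 ± 0.0735 to 20.3 ± 1.75 CPM (4.32 ± 0.10, edgeR adjusted p = 1.45e-14) and in 3B3L from 1.63 ± 0.159 to 20.1 ± 0.754 CPM (3.62 ± 0.10, adjusted p = 3.16e-14). Slc38a7, a lysosomal glutamine exporter, rose by 0.99 ± 0.08 in J1 and by 1.05 ± 0.08 in 3B3L (adjusted p = 1.54e-08 and 7.5e-09).

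Sodium-coupled neutral amino acid transporters of the Slc38 family were among the genes that fell. Slc38a2 (SNAT2), which responds to amino acid supply, fell in J1 from 326 ± 4.77 to 107 ± 17.8 CPM (-1.60 ± 0.09, edgeR adjusted p = 1.57e-10), and in 3B3L its log2 fold change was -0.77 ± 0.09 (adjusted p = 7.04e-07). Slc38a3, a glutamine transporter, fell by 2.65 ± 0.14 in J1 (adjusted p = 1.12e-10) and by 3.28 ± 0.14 in 3B3L (adjusted p = 7.48e-12). Slc38a4 fell from 178 ± 11.8 to 32.5 ± 0.870 CPM in 3B3L (-2.45 ± 0.06, adjusted p = 2.04e-14), and in J1 its log2 fold change was -0.85 ± 0.06 (adjusted p = 2.67e-09). In 2i, 3B3L had less Slc38a4 (-1.71 ± 0.06, adjusted p = 1.75e-11) and Slc43a1, a transporter of branched amino acids (-1.26 ± 0.11, adjusted p = 3.33e-07), and more Slc38a2 (0.89 ± 0.09, adjusted p = 6.17e-07) than J1.

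**Figure D5:**
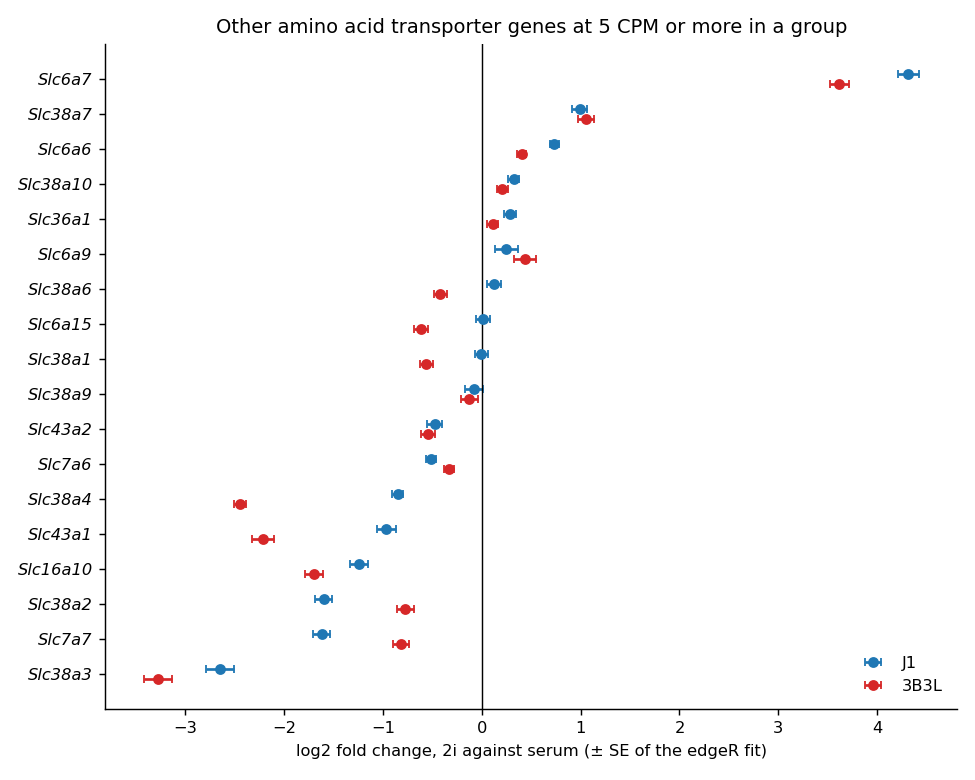
Log2 fold change for 2i against serum (x axis, bars are the SE of the edgeR fit) of the 18 other listed amino acid transporter genes that reached a mean of 5 CPM in any group (y axis, sorted by the J1 value), in J1 and in 3B3L. Slc6a7 lies at 4.32 and 3.62 and Slc38a3 at -2.65 and -3.28.

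Mitochondrial carriers and enzymes act on the glutamate that enters. Of 4 mitochondrial glutamate and aspartate carriers, all 4 passed in J1, 2 in each direction (median 0.23). In 3B3L 1 rose, 1 fell and 2 did not pass (median -0.13). Between the lines 1 was lower in 3B3L and 3 did not pass, both in serum and in 2i. The shares of all genes that passed were 66.1% for 2i in J1, 65.4% in 3B3L, and 38.7% in serum and 45.9% in 2i between the lines. Slc25a13, an aspartate-glutamate carrier, rose by 0.72 ± 0.04 in J1 (edgeR adjusted p = 5.46e-10), and its change of 0.11 ± 0.04 in 3B3L (adjusted p = 0.0431) was lost on leaving out most libraries. Slc25a12, its paralogue, fell by 0.52 ± 0.05 in J1 (adjusted p = 8.38e-08), a call lost with transcript length offsets (-0.11), and did not pass in 3B3L (-0.08 ± 0.05, adjusted p = 0.14).

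Of 18 enzymes of glutamate and glutamine metabolism, 10 rose, 4 fell and 4 did not pass in J1 (median 0.27), and 7 rose, 5 fell and 6 did not pass in 3B3L (median 0.03). Between the lines 7 were higher, 4 lower and 7 did not pass in serum, and 6 were higher, 7 lower and 5 did not pass in 2i. In the order of these 4 comparisons, 66.1%, 65.4%, 38.7% and 45.9% of all genes passed. Asns, which makes asparagine from aspartate and glutamine, rose in J1 from 301 ± 2.50 to 1117 ± 55.9 CPM (1.89 ± 0.05, edgeR adjusted p = 7.23e-14) and in 3B3L from 750.4 ± 36.7 to 1729 ± 62.2 CPM (1.20 ± 0.05, adjusted p = 8.56e-12). Oat, ornithine aminotransferase, rose by 1.74 ± 0.05 and by 1.47 ± 0.06 (adjusted p = 1.87e-13 and 1.48e-12). Gad1, which converts glutamate to GABA, fell in J1 from a mean of 5.08 CPM to 0.830 CPM (-2.60 ± 0.13, adjusted p = 6.92e-11) and in 3B3L from 5.54 CPM to 1.27 CPM (-2.12 ± 0.12, adjusted p = 3.22e-10). Glul, glutamine synthetase, had log2 fold changes of -0.69 ± 0.05 in J1 and -0.17 ± 0.05 in 3B3L (adjusted p = 4.71e-09 and 0.00802).

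Cysteine and glutamate are also building blocks of glutathione. Of 13 genes of glutathione synthesis and use, 6 rose, 5 fell and 2 did not pass in J1 (median -0.07), and 7 rose and 6 fell in 3B3L (median 0.59). Between the lines 4 were higher, 5 lower and 4 did not pass in serum, and 3 were higher, 3 lower and 7 did not pass in 2i. All-gene shares in the same order were 66.1%, 65.4%, 38.7% and 45.9%. Ggt1, a gamma-glutamyl transferase that breaks down extracellular glutathione, rose in J1 from 5.71 ± 0.168 to 48.2 ± 1.70 CPM (3.08 ± 0.06, edgeR adjusted p = 2.9e-15) and in 3B3L from 6.81 ± 0.347 to 31.7 ± 0.831 CPM (2.22 ± 0.06, adjusted p = 4.17e-14). Gss, glutathione synthetase, rose by 1.71 ± 0.06 in J1 and by 1.52 ± 0.06 in 3B3L (adjusted p = 4.9e-13 and 1.26e-12), and Gpx1, a glutathione peroxidase, by 1.61 ± 0.07 and by 2.40 ± 0.07 (adjusted p = 4.41e-12 and 5.05e-14). Anpep, an aminopeptidase, fell in both lines, by 1.59 ± 0.08 in J1 and by 0.70 ± 0.07 in 3B3L (adjusted p = 2.92e-11 and 3.46e-07).

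Slc7a11 is a known target of the transcription factors NRF2 and ATF4, and other genes tied to each were taken as lists. Not all are targets, since the NRF2 list holds Nfe2l2 (NRF2 itself) and Keap1, and the ATF4 list holds Atf4 itself. Of 16 genes of the NRF2 list, 10 rose, 5 fell and 1 did not pass in J1 (median 0.26). In 3B3L 8 rose, 4 fell and 4 did not pass (median 0.21). Between the lines 3 were higher, 3 lower and 10 did not pass in serum, and 3 were higher, 6 lower and 7 did not pass in 2i. Nqo1, a quinone reductase, rose by 2.12 ± 0.08 in J1 and by 2.39 ± 0.08 in 3B3L (edgeR adjusted p = 1.37e-12 and 7.03e-13), while Hmox1, heme oxygenase, had log2 fold changes of -0.45 ± 0.06 and -0.19 ± 0.06 (adjusted p = 8.99e-06 and 0.0135). Of 25 genes of the ATF4 and amino acid response, 13 rose, 6 fell and 6 did not pass in J1 (median 0.20), and 13 rose, 7 fell and 5 did not pass in 3B3L (median 0.20). Between the lines 8 were higher, 4 lower and 13 did not pass in serum, and 5 were higher, 7 lower and 13 did not pass in 2i. Beside both lists, the shares of all genes in the same order were 66.1%, 65.4%, 38.7% and 45.9%. Nupr1, a stress-induced nuclear protein, rose by 2.60 ± 0.10 and by 2.16 ± 0.10 (adjusted p = 3.52e-12 and 2.02e-11). Ddit4, an inhibitor of mTORC1, fell by 1.04 ± 0.10 in J1 and by 2.59 ± 0.11 in 3B3L (adjusted p = 1.75e-07 and 4.38e-12).

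Leucine and arginine brought in by Slc7a5 and Slc7a1 are sensed by mTORC1, the kinase complex that controls growth. Of 24 genes for mTORC1 and lysosomal amino acid sensing, 23 were in the table and tested. In J1 5 rose, 5 fell and 13 did not pass (median 0.02), and in 3B3L 9 rose, 8 fell and 6 did not pass (median -0.06). Between the lines 6 were higher, 7 lower and 10 did not pass in serum, and 6 were higher, 4 lower and 13 did not pass in 2i. All genes passed at 66.1%, 65.4%, 38.7% and 45.9% in the same order. Castor2, related to the arginine sensor Castor1, fell in J1 from 12.9 ± 0.413 to 6.18 ± 0.645 CPM (-1.06 ± 0.08, edgeR adjusted p = 1.36e-08) and in 3B3L from 19.3 ± 0.285 to 3.47 ± 0.340 CPM (-2.48 ± 0.09, adjusted p = 7.32e-13). Castor1 had log2 fold changes of -0.77 ± 0.06 in J1 and -0.57 ± 0.07 in 3B3L (adjusted p = 2.96e-08 and 1.04e-06). Rragd, a Rag GTPase, fell by 1.15 ± 0.07 in 3B3L (adjusted p = 8.63e-10) and did not pass in J1 (0.11 ± 0.07, adjusted p = 0.209).

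Neighbours of the other transporters in RefSeq did not share one direction with them. Mtus2, 11344 bases from Slc7a1, rose in both lines (0.81 ± 0.08 and 0.83 ± 0.08, edgeR adjusted p = 2.16e-07 and 1.06e-07). Ubl3, on the other side of Slc7a1, fell by 0.46 ± 0.04 in J1 (adjusted p = 1.41e-07) and rose by 0.29 ± 0.04 in 3B3L (adjusted p = 1.93e-05). The noncoding gene BC048644 lies 146 bases from Slc7a5 and rose by 1.77 ± 0.36 in J1 and by 1.32 ± 0.44 in 3B3L (adjusted p = 0.000404 and 0.015).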

How the data were processed

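Per the labels, poly(A) RNA was made into stranded libraries and 24 libraries were sequenced in pools of 12. The pool of each library is not in the labels used here, and its part in the results was not tested. The authors estimated transcript abundance with Sailfish against mm10 transcript models and summed it to genes. The deposited values were an estimated count per gene and, per transcript, an estimated count, an effective length and TPM. The libraries are named as biological replicates, but nothing says that they came from separate cultures. The p-values therefore measure only the spread between these samples.

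Estimated counts were rounded, filtered by expression, scaled by TMM and fitted over all 12 libraries with 1 coefficient per group by edgeR 4.0.16 (R 4.3.3, quasi-likelihood test, Benjamini-Hochberg over 17885 genes, adjusted p under 0.05). The test was tested on simulated data. Symbols came from gencode and matched 85.6% of genes. CPM used TMM-scaled totals. Levels per length summed transcript reads over effective length. DESeq2 1.42.0 and other settings were alternatives. Members and gene lists were chosen with earlier results of these data known. Beside the 10 transporters, named genes are, per list and comparison, up to 2 highest and 2 lowest fold changes among genes called at 5 CPM or more, some of which are left out here, the 5 genes most like Slc1a1, and RefSeq neighbours. Marker genes were listed separately.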

Additional observations from a re-analysis of the deposited data

Results flagged for a closer look

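The difference between the lines in the 2i effect drew attention to 5 transporters. Because this contrast chose the set, the values are a description and no test is given for them. The log2 difference (3B3L minus J1) was 2.65 for Slc1a1, -1.29 for Slc1a4, 0.54 for Slc7a11, 0.41 for Slc7a3 and 0.25 for Slc7a5. These 5 do not follow size, since Slc1a3 was at 0.33 ± 0.16 and was not flagged. Nothing is read from which genes were flagged. The groups hold 3 libraries, too few to look for single outlying samples.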

How the results depend on the processing

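Over 20 other settings, including DESeq2, the 2i effects of the transporters kept their direction in both lines except for Slc7a11 in 3B3L, which ranged from -0.07 to 0.23 on leaving out 1 library. Counting only transporters that were called and at least 2-fold changed, 3 remained for 2i in J1, 3 for 2i in 3B3L, 0 between the lines in serum, 1 between the lines in 2i and 1 for the difference of the 2i effects, where the threshold itself lowers the count. For that difference the count was 2 with at least 10 counts in every library, 2 with transcript length offsets, and 2 to 4 on leaving out 1 library. The count between the lines in 2i was 3 to 6 on leaving out 1 library. Values near 0 between the lines changed sign for Slc1a3 in serum with length offsets (-0.02), Slc1a5 in serum without the low-count filter (-0.01), with the 6 libraries compared (-0.01) and on leaving out 1 library (-0.03 to 0.05), and Slc7a5 in 2i on leaving out 1 library (-0.09 to 0.05). By CPM over mean effective length, Slc1a1 had rank 8 in J1 2i, while its rank in 3B3L was 8 in serum and 6 in 2i. As a share of estimated reads, Slc1a1-001 held 65.8% in 3B3L 2i, 73.6% in J1 serum and 73.9% in J1 2i. The causes of these shifts were not tested. Replicate numbers were not used to pair the samples in the main fit. Same-numbered libraries had correlations of their deviations from the group means from -0.608 to 0.29. The deviations of 3 libraries add to 0 within a group, so these correlations cannot exclude pairing. Some libraries with different numbers were more strongly correlated. J1 2i replicate 2 stood at 0.821 with 3B3L serum replicate 3 and at -0.828 with 3B3L serum replicate 1. These values are not independent of each other for the same reason, and their source was not tested. With a replicate block, the count was 8 for 2i in J1, 6 for 2i in 3B3L, 5 between the lines in serum and 5 between the lines in 2i. Depth limits Slc1a2, which held at most 9 reads in a library.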
